A study of Mus musculus with 9 samples.

Results

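The clustered protocadherin genes lie side by side on mouse chromosome 18 as an alpha, a beta and a gamma cluster (Pcdha, Pcdhb and Pcdhg). Their members were taken as every Dppa4 peak that overlapped 37090000 to 38010000 of that chromosome in the mm9 assembly, a stretch of 920 kb. The alpha part was 37.09 to 37.38 Mb, the beta part 37.38 to 37.83 Mb and the gamma part 37.83 to 38.01 Mb. These limits held 361 of the 229345 peaks in the 6 deposited lists. The limits were given as those of the gene clusters and not set by peak values, but were not checked against an mm9 annotation. The clusters were chosen for study with earlier results of these data known.

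Dppa4 binding was mapped by chromatin immunoprecipitation followed by sequencing (ChIP-seq) in 3 mouse lines, with 2 immunoprecipitated libraries each. E14 cells are mouse embryonic stem cells, kept here without feeders in 2i medium with 2% serum. P19 is an embryonal carcinoma line, and 3T3 is a fibroblast line that here carried ectopic Dppa4; both were grown in DMEM with 10% serum. The labels name neither the promoter that drove Dppa4 in 3T3 nor whether the cells were a clone. Whether both libraries of a line had their own culture is also unstated, and their spread could be technical only. Peak lists hold no expression values, so the identity of the cells could not be checked against marker genes, and the 3 input libraries were not analysed here.

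Dppa4 is a nuclear DNA-binding protein of pluripotent cells and early embryos that acts together with its relative Dppa2. Clustered protocadherins are adhesion proteins of the cell surface, known from neurons, where each cell uses its own choice of them and so carries its own surface identity. Each variable exon of the alpha and gamma clusters has a promoter of its own and is spliced to constant exons at the end of its cluster, whereas beta genes are single exons with no constant part. Promoter choice is known to involve DNA methylation, CTCF and cohesin. A RefSeq gene table of another assembly, GRCm38, lists 14 Pcdha, 22 Pcdhb and 22 Pcdhg genes in this order, 1 of the last a pseudogene (Pcdhgb8). It places Slc25a2, Taf7 and a pseudogene between Pcdhb22 and Pcdhga1, and Hdac3 and Diaph1 beyond the gamma genes. No gene was assigned to a peak, since no annotation of mm9 was at hand.

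Dppa4 peaks were dense across the protocadherin clusters in all 3 lines. There were 74 and 70 peaks per E14 library, 83 and 92 per P19 library, and 18 and 24 per 3T3 library. Density reached 80.4 and 76.1 peaks per Mb for E14, 90.2 and 100 for P19, and 19.6 and 26.1 for 3T3. The 3T3 lists were also the shortest, with 15462 and 17540 peaks against 40011 to 61693 in the other libraries. Within each library the clusters were therefore compared with the rest of chromosome 18. Peak density was 4.19-fold and 5.70-fold that of the rest of the chromosome for E14, 7.44-fold and 6.14-fold for P19, and 4.11-fold and 4.98-fold for 3T3. The clusters were denser in 6 of 6 libraries, by a mean of 2.41 on the log2 scale (exact two-sided sign-flip permutation test, p = 0.031, the smallest that 6 libraries allow). The libraries of a line are not independent, and leaving out any of the 6 raised this p to 0.062, the smallest that 5 libraries allow.

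The clusters stood above their surroundings as well. Stretches of equal length on the lower and the higher side held 39.1 and 44.6 peaks per Mb in E14 replicate 1 and 25 and 30.4 in E14 replicate 2. In P19 the values were 22.8 and 34.8 in replicate 1 and 31.5 and 43.5 in replicate 2. In 3T3 they were 14.1 and 10.9 in replicate 1 and 17.4 and 14.1 in replicate 2. Each of these flanks was thus less dense than the clusters in the same library. Among 2858 windows of 920 kb that tiled the autosomes and the X chromosome, the median window held 13 and 10 peaks for E14, 9 and 11 for P19, and 3 and 4 for 3T3. The clusters ranked 126 and 49 for E14, 28 and 43 for P19, and 144 and 104 for 3T3, so windows with more peaks existed in every library.

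**Figure D1:**
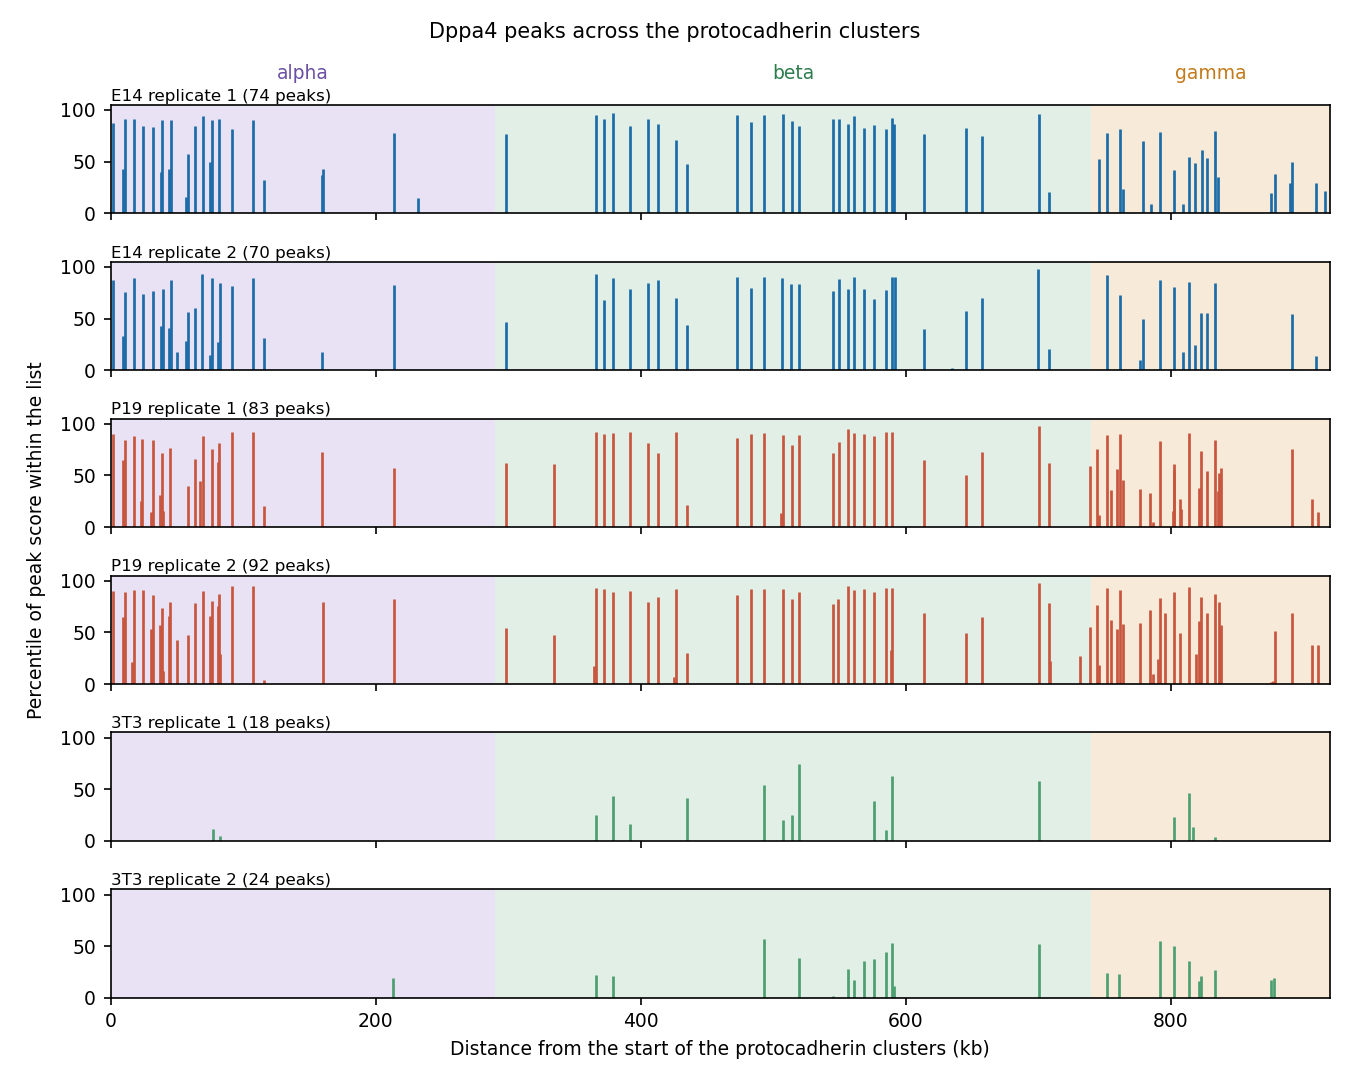
Every peak of the 6 lists across the clusters, by distance from their start (kb), with its height as the percentile of its score within the list (100 is the best). E14 and P19 carry bars in all parts, many of them high in alpha and beta. In gamma their bars are mixed, with median percentiles of 48.5 to 60.2. The 3T3 lists carry mostly low bars that are nearly missing from alpha, with 2 and 1 peaks there.

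As a share of each list, the clusters took most in P19. Of every 10000 peaks on a list, 11.995 and 16.1 lay there for E14, 20.7 and 17.97 for P19, and 11.6 and 13.7 for 3T3. With the SD over 2 libraries, the means were 14.1 ± 2.91 for E14, 19.4 ± 1.96 for P19 and 12.7 ± 1.44 for 3T3. P19 lay above E14 and 3T3 without overlap, E14 minus P19 being -5.30 per 10000 and P19 minus 3T3 being 6.70 (exact two-sided permutation p = 0.333 for both, the smallest that 2 libraries against 2 allow). E14 and 3T3 overlapped (exact p = 0.667). The gap to 3T3 grew when fewer peaks were kept. E14 minus 3T3 went from 1.39 to 14.8 with the best 50% of each list and to 14.9 with all lists cut to 15462 peaks. P19 minus 3T3 went to 23.4 and 19.4 (exact permutation p = 0.333 for each). The best 50% left only 4 cluster peaks in each 3T3 list, and the cut to 15462 peaks left 18 and 22.

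The scores of these peaks were high for their lists in alpha and beta of E14 and P19, near the middle in gamma there, and low in 3T3. A score is the number that the authors' peak caller gave a peak, and its scale is not named, so each score was ranked within its own list. The median percentile of cluster peaks was 80.4 and 76.6 in the E14 libraries, 71.5 and 75.6 in P19, and 25.4 and 25.8 in 3T3. By part, the medians of the E14 and P19 libraries were 72.0 to 82.4 in alpha, 79.4 to 88.4 in beta and 48.5 to 60.2 in gamma. The median of a whole list is near the middle of this scale by construction. The best-scoring 10 percent of each list included 20 of 74 and 8 of 70 cluster peaks in E14, 16 of 83 and 19 of 92 in P19, and 0 of 18 and 0 of 24 in 3T3. The best 3T3 scores in the clusters were 198 and 191.5, where the median scores over the whole 3T3 lists were 103 and 154. Cluster peaks were wider than the list in E14 and P19 and narrower in 3T3, with medians of 734.5 and 1010 bp in E14 against 411 and 772 bp over the lists, 635 and 796.5 bp in P19 against 453 and 540 bp, and 333.5 and 787.5 bp in 3T3 against 400 and 872 bp. Gamma peaks alone were not wider than the list in replicate 1 of E14 and P19, with medians of 410 and 425 bp. In replicate 2 they were, with 800 and 668.5 bp.

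The alpha cluster was dense in E14 and P19 and nearly empty of peaks in 3T3. Its peaks numbered 24 in each E14 library, 24 and 27 for P19, and 2 and 1 for 3T3. Both E14 and both P19 libraries were therefore far above both 3T3 libraries. Alpha density was 4.31-fold and 6.20-fold the rest of chromosome 18 for E14, 6.83-fold and 5.72-fold for P19, but 1.45-fold and 0.658-fold for 3T3, so in fibroblasts alpha was near the level of the chromosome. Alpha peaks made up 32.4% and 34.3% of the cluster peaks for E14, 28.9% and 29.3% for P19, and 11.1% and 4.17% for 3T3. The groups did not overlap, with mean differences of 25.7 percentage points for E14 and 21.5 for P19 over 3T3 (exact permutation p = 0.333 in each case). This share was chosen after the peaks were seen. Scores in 3T3 alpha were low too, at 55 and 51.8 in replicate 1 and 69.99 in replicate 2, in lists that start at 50.

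The beta cluster was dense in all 3 lines. Here the libraries of E14 had 29 and 30 peaks, those of P19 31 and 35, and those of 3T3 12 and 13. Relative to the rest of the chromosome that was 3.36-fold and 4.996-fold for E14, 5.68-fold and 4.78-fold for P19, and 5.60-fold and 5.51-fold for 3T3. The 3T3 libraries thus lay within the range of P19 for beta when all peaks were counted. Of every 10000 peaks of a list, beta took 5.80 ± 1.56 for E14, 7.29 ± 0.644 for P19 and 7.59 ± 0.247 for 3T3 (SD over 2 libraries). With all lists cut to 15462 peaks, beta took 16.2 and 15.5 per 10000 for E14, 17.5 and 14.9 for P19, and 7.76 and 7.11 for 3T3, so both 3T3 libraries then lay below the others.

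The gamma cluster, the shortest part, had the highest mean density when all peaks were counted and was richer in P19 than in E14. E14 had 21 and 16 peaks there, P19 had 28 and 30, and 3T3 had 4 and 10. Its density was 6.08-fold and 6.66-fold the rest of chromosome 18 for E14, 12.8-fold and 10.2-fold for P19, and 4.67-fold and 10.6-fold for 3T3. P19 lay above E14 in both libraries, while the 3T3 libraries differed from each other by more than the E14 libraries did. Per 10000 peaks of a list, gamma took 3.54 ± 0.197 in E14 and 6.43 ± 0.805 in P19 (SD, n = 2), a ratio of E14 to P19 of 0.551 (exact permutation p = 0.333).

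Between the parts, over the 6 libraries, gamma held a mean of 100.9 peaks per Mb, alpha 58.6 and beta 55.6. Densities count the full length of each part, and the longest stretches without a peak in any library lay in alpha and beta. They were 43.6 and 52.5 kb in alpha, 65.7 kb from alpha into beta and 41.7 kb in beta. Gamma was above alpha in 6 of 6 libraries, by 42.3 ± 28.7 per Mb (SD, n = 6; exact sign-flip p = 0.031, adjusted p = 0.094 over the 3 pairs of parts by Benjamini-Hochberg). It was above beta in 5 of 6 libraries, the exception being 3T3 replicate 1 (exact p = 0.062, adjusted p = 0.094). Alpha was above beta in the 4 E14 and P19 libraries and below it in both 3T3 libraries (exact p = 0.688). None of these pairs passed an adjusted p of 0.05. Alpha minus gamma shrank from -42.3 to -10.9 per Mb with the best 50% of each list and to -3.26 with all lists cut to 15462 peaks. With that cut, alpha was above gamma in 3 of the 4 E14 and P19 libraries. As covered length the mean was -16285 bp per Mb, but alpha was above gamma in 2 of these 4 libraries, both of E14. The sign of alpha minus beta, 3.07 ± 20.0 per Mb, turned when fewer peaks were kept or close peaks were joined, and that of beta minus gamma when all lists were cut to 15462 peaks.

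**Figure D2:**
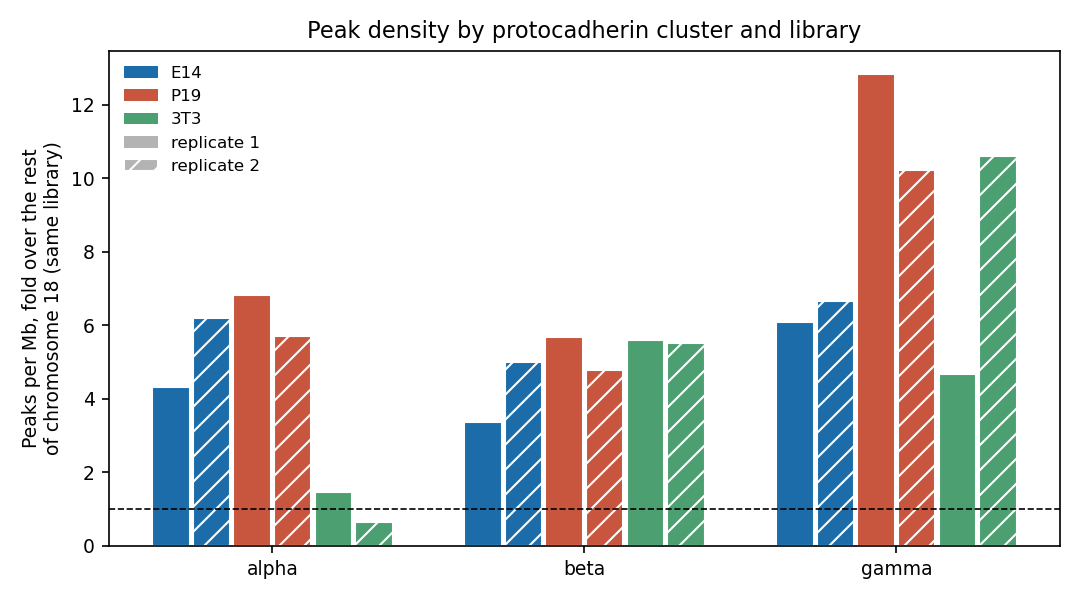
Peaks per Mb in the alpha, beta and gamma clusters, as a fold over the rest of chromosome 18 in the same library (bars start at 0, the dashed line marks 1, 1 bar per library). The 3T3 bars of alpha, at 1.45 and 0.658, are the ones near the line. The P19 bars of gamma reach 12.8 and 10.2, and the 3T3 bars there 4.67 and 10.6.

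To follow single positions, peaks of the 6 lists that overlapped by at least 1 bp were joined into sites. The clusters held 107 sites, 29 in alpha, 38 in beta and 40 in gamma. Of these, 56 had a peak in all 4 E14 and P19 libraries, which is 52.3% of the cluster sites against 32.8% of the 77706 sites of the genome. By part this was 19 of 29 in alpha and 28 of 38 in beta, but 9 of 40 in gamma, below the genome's share. Another 22 cluster sites rested on a single library, or 20.6%, against 34 percent of all sites. No site of the clusters was found in 3T3 libraries alone, where such sites made up 3.97 percent of all sites. A count of 0 of 107 sites allows a share of up to 2.80% by the limit of 3 counts and up to 3.47% by the Wilson 95% interval. A 3T3 peak was present at 31 sites, against 24.5 percent of all sites, and 26 of these 31 (83.9%) were sites of all E14 and P19 libraries, against 56 percent of all sites with a 3T3 peak.

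The sites held by all E14 and P19 libraries, a class set up after the peaks were seen, formed a series. Their midpoints were a median of 7.19 kb apart in alpha, 9.46 kb in beta and 10.1 kb in gamma. There were 65.5 such sites per Mb in alpha, 62.2 in beta and 50 in gamma, against 9.81 over the autosomes and the X chromosome. The series was broken by long gaps, the longest being 83.2 kb from 37304522 to 37387713, at the change from alpha to beta, and the next 67.1 kb from 37388668 to 37455800. The numbers of these sites, 19, 28 and 9, can be set beside the 14, 22 and 22 genes of the families, but no site was matched to a promoter. These sites also ranked high: the mean percentile over the 4 libraries was at least 80 at 37 of the 56 sites, or 66.1%, against 31.5 percent of the 25503 such sites in the genome. By part this was 11 of 19 in alpha, 21 of 28 in beta and 5 of 9 in gamma.

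Most positions of the alpha series had no peak in fibroblasts. Of the alpha sites of all E14 and P19 libraries, 3 of 19 had a peak in either 3T3 library (15.8%, Wilson 95% interval 5.52 to 37.6). In beta 16 of 28 had one (57.1%, 39.1 to 73.5) and in gamma 7 of 9 (77.8%, 45.3 to 93.7), against 41.7 percent of such sites over the genome. The intervals treat sites as independent and cover counting error only. A peak in both 3T3 libraries was found at 0 of 19 alpha sites, 8 of 28 beta sites and 3 of 9 gamma sites, against 28 percent over the genome. Replicate 1 of 3T3 held 2, 12 and 3 of the alpha, beta and gamma sites against a genome share of 30.8 percent, and replicate 2 held 1, 12 and 7 against 39 percent, so alpha was lowest in each library. Over E14 and P19 the alpha and beta sites had median percentiles of 83.5 and 85.9, but the lower quartile was 62.7 in alpha and 80.6 in beta, so alpha held more weak sites. Among sites with a mean percentile of 80 or more, 2 of 11 alpha sites, 14 of 21 beta sites and 5 of 5 gamma sites had a peak in either 3T3 library, against 57.3 percent over the genome. Read depth is unknown, so a missing 3T3 peak may be an unbound site or one below detection.

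**Figure D3:**
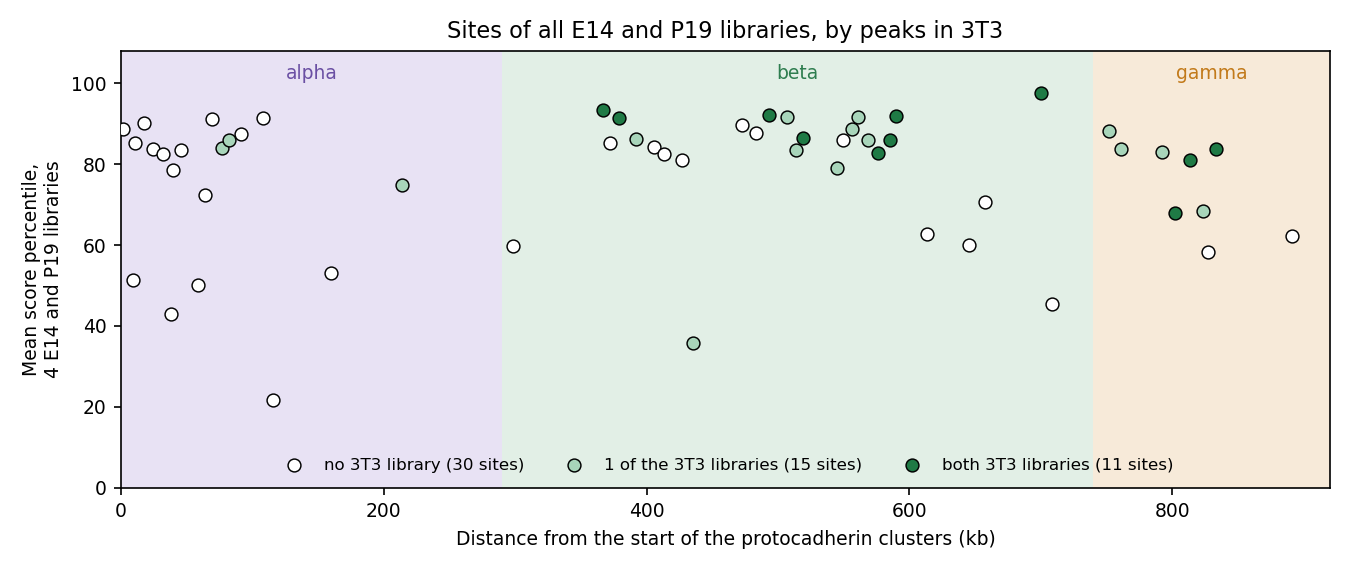
The 56 sites with a peak in all 4 E14 and P19 libraries, by distance from the start of the clusters (kb) and mean score percentile in those libraries, filled by the number of 3T3 libraries with a peak. In alpha 16 of 19 circles are open, 11 of 19 lie at a percentile of 80 or more, and most crowd toward the start of the part. Dark circles (both 3T3 libraries, 11 sites) lie in beta and gamma.

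The best alpha sites were strong in the pluripotent lines and had no 3T3 peak. The site at 37197117 to 37198058 scored 692 and 551 in E14 and 1391 and 2373 in P19. The site at 37158627 to 37160019 scored 913 and 721 in E14 and 904 and 1082 in P19. The site at 37107002 to 37108232 scored 765 and 549 in E14 and 856 and 1339 in P19. None of these had a peak in a 3T3 library. The midpoint of the farthest of them lies 107.6 kb from the start of the alpha part, and the first site with a 3T3 peak began at 37166045, after 76.0 kb without one. Farther on, and picked here after its values were seen, 3T3 replicate 2 had its single alpha peak at the site at 37303034 to 37304521, with a score of 69.99 against 338 and 388 in E14 and 156 and 540 in P19.

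The strongest site within the limits lay in the beta part, in the stretch toward gamma, at 37789526 to 37790997. Slc25a2, Taf7 and a pseudogene stand between the beta and gamma genes, and no mm9 annotation was at hand. Whether this site lies at a protocadherin gene or at one of those is therefore not known. The site scored 3100 in both P19 libraries, a value at which other peaks of those lists are tied, and 1191 and 1443 in E14. It also had peaks of 123 and 162 in 3T3. Its percentile was 96.4 and 98.0 for E14, 98.1 and 97.8 for P19, and 57.7 and 51.6 for 3T3, so this site was near the top in both pluripotent lines and near the middle in fibroblasts.

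In all, 11 sites had a peak in all 6 libraries, 8 in beta and 3 in gamma, or 10.3% of the cluster sites against 9.19 percent of all sites. The beta site at 37679230 to 37680467 scored 831 and 615 for E14, 1489 and 1584 for P19, and 138 and 171 for 3T3. The beta site at 37582405 to 37583602 scored 1050 and 589 for E14, 1239 and 1497 for P19, and 112 and 191.5 for 3T3. The beta site at 37608742 to 37609811 scored 495 and 402 for E14, 957 and 978.5 for P19, and 198 and 110 for 3T3. It held the highest 3T3 percentile of the clusters, 74.3 in replicate 1, but 38.4 in replicate 2. The other beta sites of this kind started at 37455801, 37468345, 37665283 and 37674629, and their 3T3 percentiles ranged from 10.3 to 43.9. The gamma sites started at 37892081, 37903069 and 37922819, the last with scores of 51.5 and 83.3 in 3T3, close to the lower end of the lists. Every site found in both 3T3 libraries was thus also held by E14 and by P19. All 11 reproducible 3T3 regions of the clusters overlapped a reproducible region of E14 and of P19, against 77.6 percent and 68.3 percent over the genome, but with 11 regions the Wilson 95% interval reaches down to 74.1%. In the other direction, 11 of 64 E14 regions (17.2%) and 11 of 74 P19 regions (14.9%) were held by 3T3, against 23.6 percent and 24 percent.

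E14 and P19 shared nearly all alpha and beta regions and fewer gamma regions. Reproducible regions, the unions of overlapping peaks of both libraries of a line, numbered 22 in alpha, 29 in beta and 13 in gamma in E14, and 22, 30 and 22 in P19. Of the P19 regions, E14 held 20 of 22 in alpha, 28 of 30 in beta and 9 of 22 in gamma (40.9%, Wilson 95% interval 23.3 to 61.3), against 79.4 percent over the genome. Of the E14 regions, P19 held 19 of 22 in alpha, 28 of 29 in beta and 9 of 13 in gamma (69.2%, 42.4 to 87.3), against 68.8 percent. Most of the P19 regions that E14 lacked thus lay in gamma.

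Of the 22 gamma sites held by both P19 libraries, 9 had no peak in either E14 library (40.9%), against 9.11 percent over the genome. The strongest of them, at 37833938 to 37834529, scored 312 and 367 in P19, with percentiles of 75.1 and 76.0. Those of middle rank included the sites at 37927061 to 37928099, with scores of 159 and 173, and at 37849353 to 37849827, with 150.5 and 154. Of the 9 sites, 1 also had a 3T3 peak, at 37911195 to 37911762. Of the 13 gamma sites held by both E14 libraries, 3 had no P19 peak (23.1%, Wilson 95% interval 8.18 to 50.3), against 14.2 percent over the genome. The strongest, at 37868450 to 37869133, scored 246 and 128 in E14.

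At the gamma sites held by both lines, P19 ranked above E14 at 9 of 9 by the mean of its libraries, against 42.1 percent of such sites over the genome. The median difference was 13.01 percentile points in gamma, -0.12 in alpha, -1.18 in beta and -2.39 over the genome. This count rested on single libraries. Without E14 replicate 1 it was 6 of 9, with a median difference of 5.88 points, and without P19 replicate 2 it was 7 of 9, with 4.35 points. The largest gap among the named gamma sites was at 37903069 to 37904194, which scored 139 and 439 in E14, with percentiles of 54.2 and 85.2, and 1228 and 2253 in P19, with percentiles of 90.9 and 94.1. Here E14 replicate 1 stood far below E14 replicate 2, which was near the P19 libraries. The site at 37841345 to 37842455 scored 347 and 691 in E14 and 999 and 1761 in P19, at percentiles of 78.0 and 92.2 against 89.5 and 93.1, so the lines overlapped.

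**Figure D4:**
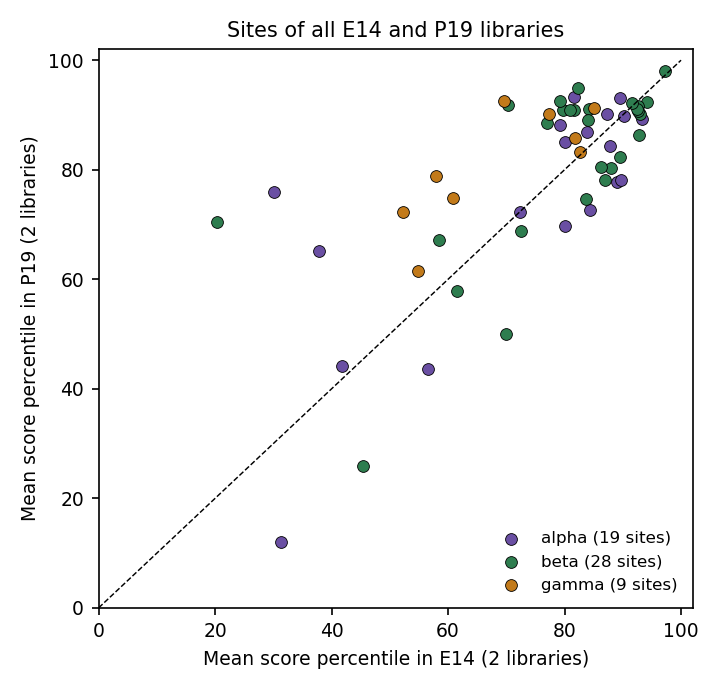
Mean score percentile in E14 (horizontal) and P19 (vertical) at the 56 sites with a peak in all 4 libraries, coloured by part, with the dashed line marking equal rank. All 9 gamma sites lie above the line (6 of 9 without E14 replicate 1, 7 of 9 without P19 replicate 2), and alpha and beta sites fall on either side, with 9 of 19 and 13 of 28 above.

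Single sites of alpha and beta differed between E14 and P19 as well. At 37249451 to 37250535, in alpha, the percentile was 42.8 and 17.3 in E14 and 72.6 and 79.2 in P19. At 37797921 to 37798581, in beta, it was 20.1 and 20.5 in E14 and 62.3 and 78.6 in P19. The opposite case was the beta site at 37681217 to 37681956, which scored 562 and 606 in E14 and had no P19 peak, though a weak one of 60.0 in 3T3 replicate 2. These positions were picked after their values were seen. Over the 56 sites the order of scores was partly shared, with Spearman rank correlations of 0.75 for the E14 libraries, 0.92 for the P19 libraries, and 0.48 to 0.62 across the lines. Over the 25503 such sites of the genome the values were 0.84, 0.90 and 0.61 to 0.71. These are correlations across sites within the same lists and are given as a description.

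The alpha series had a second feature, a weaker site at a similar distance before a stronger one. Of the 19 alpha sites held by all E14 and P19 libraries, 10 had another site within 2 kb on the side of lower coordinates, and 2 had one on the side of higher coordinates, both of these being the weaker partners in such pairs. Over the genome 12 percent of such sites had one on the lower side and 11.8 percent on the higher side. By mean percentile over the E14 and P19 libraries, with an absent peak counted as 0, all 10 neighbours were weaker. The median was 24.7 against 83.8, a gap that mixes missing peaks with low rank. The midpoints of these neighbours lay at -1.625 to -1.41 kb, with a median of -1.48 kb. For example, picked after its values were seen, the site at 37099847 to 37101445 scored 766 and 291 in E14 and 587 and 996 in P19, and the smaller one at 37098921 to 37099540 scored 100.8 and 86.9 in E14 and 203 and 229 in P19. The alpha neighbours were found in 1 to 4 of the E14 and P19 libraries, and none had a 3T3 peak.

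In beta the pattern was rare, with a lower-side neighbour at 4 of 28 sites, at -1.65 to -0.982 kb. In gamma it was found at 5 of 9 sites, at -1.98 to -1.04 kb, and with a limit of 1.5 kb in place of 2 kb only 1 of these remained, against 7 in alpha and 3 in beta. The 2 kb limit was chosen after the peaks were seen, and the spacing was not tested.

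**Figure D5:**
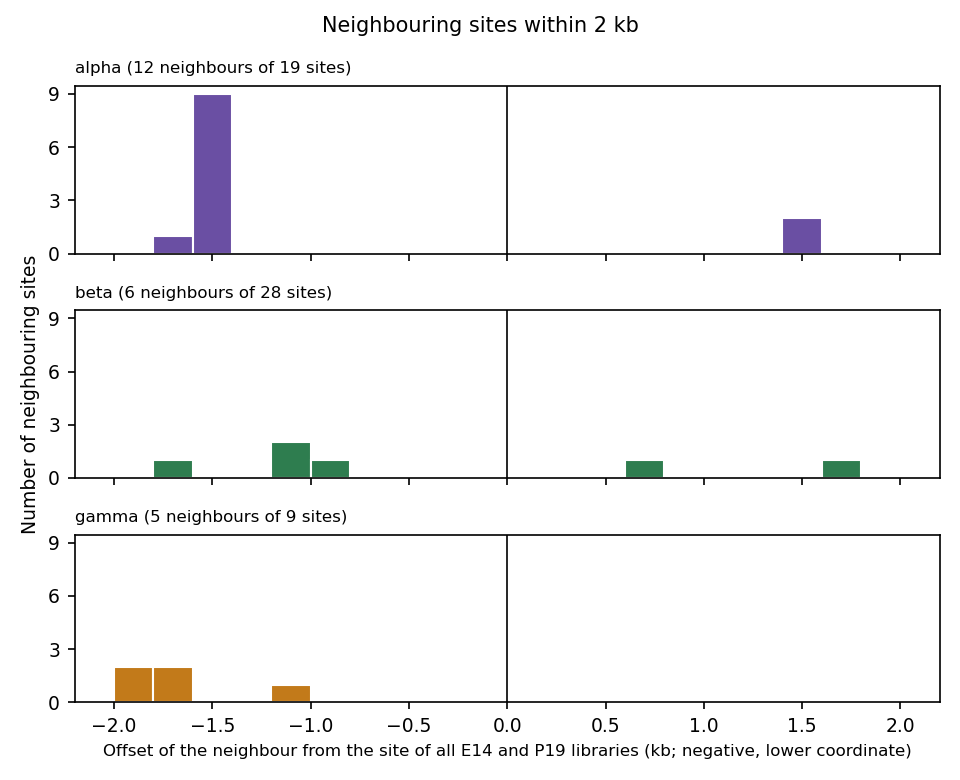
Offset (kb) of every neighbouring site within 2 kb of a site held by all E14 and P19 libraries, in bins of equal width, for alpha, beta and gamma. In alpha, with 19 such sites, 10 neighbours stack at -1.625 to -1.41 kb, and 2 lie on the higher side. Those of beta and gamma are more scattered. Lower-side neighbours stand at 4 of 28 beta sites and 5 of 9 gamma sites.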

How the data were processed

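Immunoprecipitation used an antibody to DPPA4 and Nextera libraries, per the labels' protocols. BWA 0.7.13-r1126, SAMtools 1.3, CASAVA 1.8 and bcl2fastq 1.8, with mm9, stand in the submitters' processing notes. Peak names begin with MACS in the deposited lists; its version, threshold and use of input were not given. The score of each peak is the authors' and served only as a rank within its list. No list holds read counts, so depth is unknown. Titles gave the line and replicate number.

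Coordinates are 1-based. Peaks were placed in alpha, beta or gamma by midpoint. The length of chromosome 18 was the span of observed peaks. Lines were compared by exact permutation and parts by exact sign-flip tests over libraries. Named sites are the best 3 per part by mean percentile, sites in all 6 libraries, and sites of both libraries of 1 line alone, up to 30; others are said to be picked later. The members and lists were chosen with earlier results of these data known. The code was tested on simulated data. Alternatives were the best 50% of each list, equal list lengths, merged or 500 bp peaks, covered length, another overlap or background, a replicate block and leaving out libraries. Tools were Matplotlib 3.10.9, SciPy 1.17.1, pandas 2.3.3, NumPy 2.4.6 and Python 3.11.15.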

Additional observations from a re-analysis of the deposited data

Results flagged for a closer look

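With all peaks counted, the contrast of alpha with beta went opposite ways in the lines: alpha had more peaks per Mb than beta in both E14 and both P19 libraries, and fewer in both 3T3 libraries. Alpha minus beta was 17.2 per Mb for E14 (16.1 and 18.3 in its libraries), 14.6 for P19 (13.9 and 15.3) and -22.6 for 3T3 (-25.4 and -19.8). The gap between the lines was 39.8 per Mb for E14 and 37.2 per Mb for P19, each against 3T3. This difference of differences in peaks per Mb was not tested. As a log2 ratio of alpha to beta peaks per Mb it gave an exact permutation p of 0.333 for each line against 3T3, the smallest that 2 libraries against 2 allow. The opposite signs were not kept under other ways of counting, chosen after seeing the data: alpha was above beta in only 1 of the 4 E14 and P19 libraries with peaks under 1 kb apart merged, with the best 50% of each list or at equal list lengths, and in 3 of 4 by covered length. In both 3T3 libraries alpha stayed below beta under each of these.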

How the results depend on the processing

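Alpha minus beta, 3.07 peaks per Mb, became -3.51 with the best 50% of each list, -9.55 at equal list lengths, -9.49 with peaks under 1 kb apart merged and, as covered length, -1250 bp per Mb. Beta minus gamma became 6.30 at equal list lengths. Reproducible regions fell from 11 to 3 in 3T3 with the best 50% of each list, and to 39 in E14 and 45 in P19 at equal list lengths, where fewer peaks enter. P19 held 93.75% of E14 regions with the best 50% and 94.9% at equal lengths, against 87.5%. Leaving out 1 library, the log2 density over the rest of chromosome 18 was 2.31 to 2.48 (exact p = 0.062, fewer libraries), the E14 minus 3T3 share per 10000 peaks -0.667 (without E14 replicate 2) to 3.45, and 3T3 regions 18 (without replicate 2) or 24 (without replicate 1), counted then from 1 list. With the replicate block the mean differences per 10000 peaks were the same by construction, -5.30, 1.39 and 6.70, and the exact permutation p was 0.5 for each. Deviations of same-numbered libraries over 2858 windows correlated at -0.23, 0.08 and -0.04, so the numbers were not taken as pairing. A 3T3 peak was found at 3 of 19 alpha sites of all E14 and P19 libraries with 500 bp peaks (41.4% over the genome), 2 of 12 at equal lengths (49.5%) and 3 of 14 with the best 50% of E14 and P19 lists (49.98%), and the alpha share differed from 3T3 by 20.8 to 29.7 points for E14 and 16.6 to 29.6 for P19 (chosen after seeing the data). The upper ends of these alpha share differences came from the best 50% of each list, with only 4 cluster peaks in each 3T3 list. Missing depth limits every absence of a peak.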
